A study of Mus musculus with 14 samples.

Results

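The genes described here are 45 nucleolar ribosome biogenesis factors, named members of a list chosen with earlier results of these data known. The list was matched by gene symbol to the rows of both deposited expression tables. All 45 were found among the 23286 genes kept. They were measured by bulk RNA-seq in whole mouse kidney, in 12 libraries from 9-week-old mice taken 5 h after surgery, with 3 libraries in each of 4 groups. The groups were VE-PTPiKO mice after ischemia-reperfusion (IR), which stops and then restores the kidney's blood flow, VE-PTPiKO mice after sham surgery, Control mice after IR, and Control mice after sham surgery. VE-PTPiKO is the submitters' name for a genotype that targets VE-PTP, the endothelial receptor phosphatase encoded by Ptprb. The strain, the ischemia time, what drives the knockout and what alleles the Control mice carry are not given for these libraries in the sources used here. The labels do not say that libraries of a group come from separate animals, so p-values measure the spread between these samples, which may be technical.

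Ribosomes are assembled in the nucleolus, where RNA polymerase I transcribes ribosomal DNA into a long precursor RNA. Small nucleolar ribonucleoproteins (snoRNPs) then methylate and pseudouridylate that RNA, and large sets of assembly factors fold and cut it into the small and the large ribosomal subunit. Cells that grow or divide make many ribosomes, and nucleolar factors are among the classic targets of the transcription factor MYC. The question put to the data was how the mRNAs of these factors stood after IR relative to sham surgery in each genotype, and whether the genotypes differed.

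Libraries held 15427887 to 21296392 reads over the genes in the tables. Kidney tubule markers summed to 16300 to 23900 CPM (counts scaled to the same total in each library) over the 12 libraries, so the tissue label held. Malat1, a long RNA kept in the nucleus, took 1.962% of reads in VE-PTPiKO IR replicate 3, 1.152% in VE-PTPiKO sham replicate 2 and 1.02% in Control sham replicate 2, against 0.327% to 0.564% in the other 9 libraries. VE-PTPiKO IR replicate 3 therefore stood apart, and the calls that turn on it are given with and without it. In the Control titles every sham code number is above every IR code number. The labels do not explain the codes, so a batch that follows them and the surgery cannot be told apart in Control kidneys. In bulk RNA, fewer cells of a type and less RNA per cell also cannot be told apart.

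In Control kidneys, 8 of the 45 genes rose after IR and 1 fell, while 36 did not pass the test (limma on log2(normalized count + 1), Benjamini-Hochberg adjusted p under 0.05 over 16257 genes). Those that rose were Nop58, Gtpbp4, Tsr1, Gnl2, Rrp12, Ddx21, Nolc1 and Wdr43, by 1.30-fold to 2.06-fold, and Utp20 fell 2.12-fold. The 8 make 17.8% of the list, beside 7.48% of all genes tested that were called higher, or 9.83% of genes with a mean normalized count of at least 100. For lower calls the shares were 2.22% of the list and 4.02% of all genes tested. Fold changes lay above 0 on the log2 scale for 38 of the 45 genes, or 84.4%, beside 48.4% of all genes tested. The list's median log2 fold change was 0.22, against -0.01 over all genes tested, so most of the shifts were small. All 45 genes passed the filter on low values, the lowest mean normalized count being 29.7. The 3 Control IR values lay wholly above the 3 Control sham values for 19 genes, or wholly below them for 2 (Utp20 and Ubtf), and overlapped for 24. Over all genes tested, such separation was found upward for 16.0% and downward for 13.4%. At an unadjusted p under 0.05, limma called 16 members higher and 2 lower, beside 24.2% of all genes in either direction. Leaving out Control IR replicate 1 or Control IR replicate 2 left 3 calls, beside 8.48% and 5.30% of all genes called in either direction. Leaving out Control sham replicate 1 left 4, beside 9.71% of all genes, and leaving out Control IR replicate 3 left 5, beside 7.78%. Nop58, Gtpbp4 and Utp20 were called each time.

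In VE-PTPiKO kidneys, 1 of the 45 genes rose after IR, Nop58, none fell and 44 did not pass the test, the same limma fit over 16401 genes. That is 2.22% of the list, beside 1.92% of all genes tested called higher, or 2.52% of genes with a mean of at least 100, so it is near the background. Lower calls made up 0.793% of all genes tested. At an unadjusted p under 0.05 limma called 7 members higher and 3 lower, beside 15.2% of all genes in either direction. DESeq2 on the recovered reads called 3 higher and 2 lower after adjustment, beside 4.39% and 2.76% of the 14173 genes to which it gave an adjusted p. Fold changes lay above 0 on the log2 scale for 35 genes, or 77.8%, beside 48.9% of all genes tested, and the median log2 fold change was 0.12. The 3 VE-PTPiKO IR values lay wholly above the 3 VE-PTPiKO sham values for 13 members, where 10.6% of all genes did so, and wholly below for 2, where 10.0% of all genes did so. Without VE-PTPiKO IR replicate 3 the calls were 7 higher (Nop58, Gnl3, Wdr43, Wdr74, Gnl2, Gtpbp4 and Nip7) and 1 lower (Utp20), beside 5.79% of all genes called higher and 5.99% called lower in that fit. The calls thus increased over all genes too. With that library left out, the VE-PTPiKO IR values of 23 members lay wholly above the sham values and those of 4 wholly below, beside 24.9% and 23.3% of all genes. Without VE-PTPiKO sham replicate 1 there were 2 calls, beside 2.50% of all genes. No member was called when any other VE-PTPiKO library was left out. In the authors' deposited table the adjusted p was under 0.05 for 6 members higher and 2 lower in VE-PTPiKO kidneys, beside 6.42% and 4.88% of the genes with an adjusted p there. For Control kidneys the authors' deposited table gave 14 members higher and 1 lower, beside 12.5% and 8.60%. The genotypes thus gave different counts of calls, but the difference between their responses did not pass a test for any member, as described further on.

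**Figure D1:**
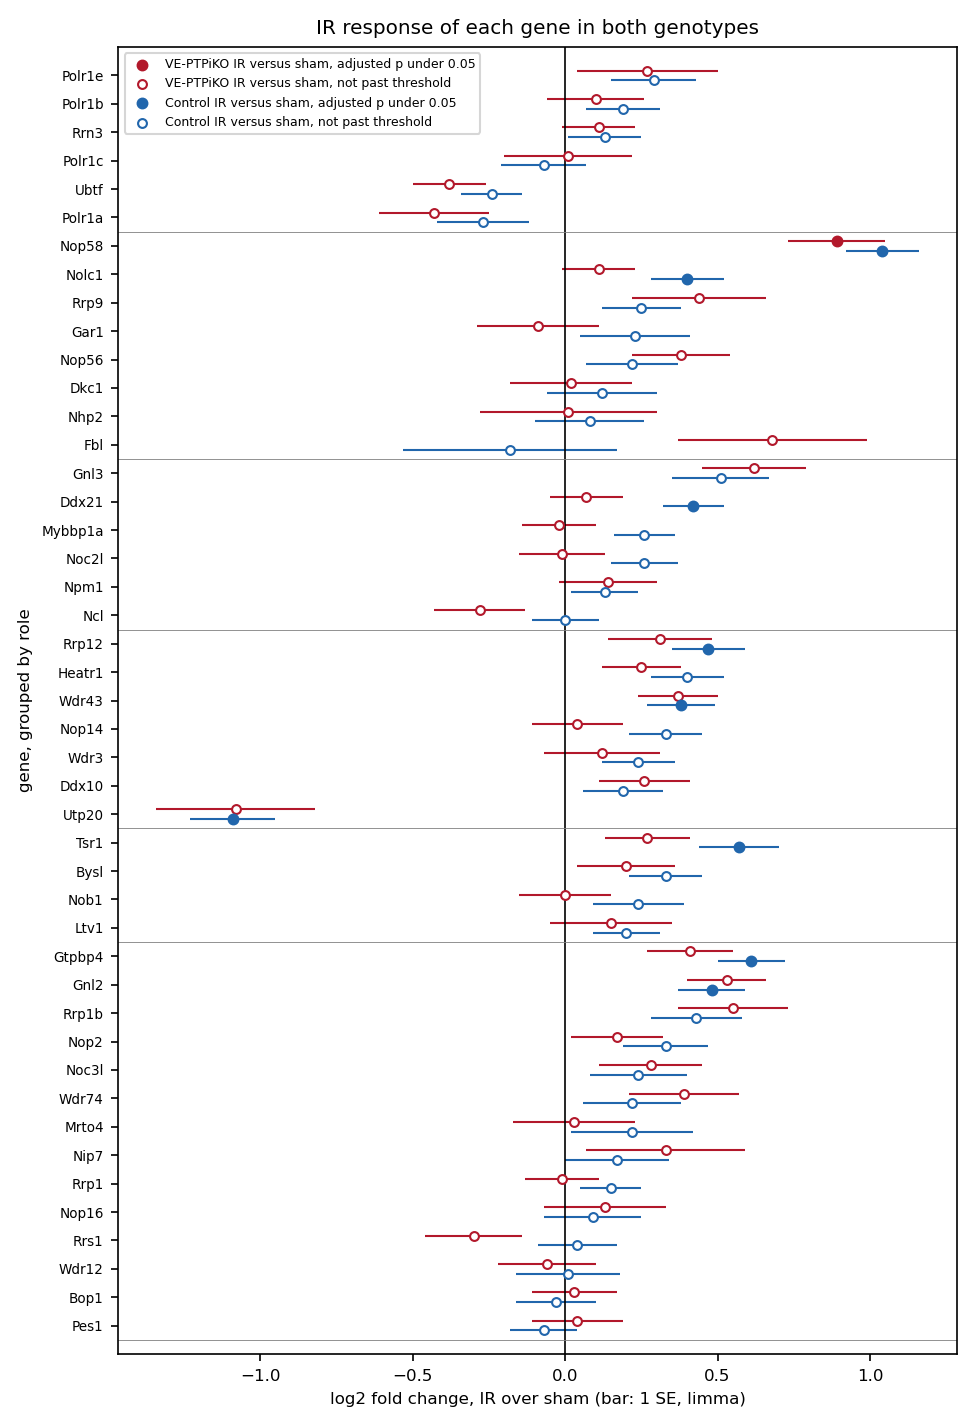
Log2 fold change of each of the 45 genes, IR over sham, on the x axis, with genes down the page by role; red is VE-PTPiKO and blue is Control, bars are 1 SE from limma, and filled points have an adjusted p under 0.05. Most points lie right of 0 in both genotypes, Nop58 lies farthest right at 0.89 and 1.04, and Utp20 lies alone near -1.08 and -1.09.

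The member with the highest fold change in each genotype was Nop58, a core protein of the box C/D snoRNPs, which guide methylation of ribosomal RNA. It had 1128, 1101 and 831 normalized counts (reads divided by the library's size factor) in VE-PTPiKO IR kidneys, against 616, 529.6 and 500.2 in VE-PTPiKO sham kidneys. Nop58 stood at 1113, 1339.8 and 1115 normalized counts in Control IR kidneys, against 561, 552 and 612 in Control sham kidneys. Every IR library was above every sham library in each genotype, with VE-PTPiKO IR replicate 3 the lowest of the 6 IR libraries. The log2 fold change was 0.89 ± 0.16 (SE; 1.85-fold; adjusted p = 0.0248, limma) in VE-PTPiKO kidneys and 1.04 ± 0.12 (2.06-fold; adjusted p = 0.000232) in Control kidneys. Nop58 spans chr1:59685006-59711510 on the plus strand of mm10, and 4 snoRNA genes lie in it. The VE-PTPiKO call was lost when VE-PTPiKO IR replicate 1, VE-PTPiKO IR replicate 2, VE-PTPiKO sham replicate 2 or VE-PTPiKO sham replicate 3 was left out, with adjusted p between 0.116 and 0.153, while the log2 fold change stayed at 0.81 to 0.86.

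Utp20, a very long scaffold protein of the small subunit processome, known best from yeast, lay lower after IR. In VE-PTPiKO IR kidneys it had 1033, 993 and 1561 normalized counts, against 1672, 3076 and 2961 in VE-PTPiKO sham kidneys. Its values in Control were 1367, 1170.4 and 1132 normalized counts after IR, against 2197, 3130.3 and 2526 after sham surgery. Every IR library was below every sham library, by a narrow margin in VE-PTPiKO, where IR replicate 3 was the highest IR library and sham replicate 1 the lowest sham library. Its log2 fold change was -1.09 ± 0.14 (adjusted p = 0.000547, limma) in Control kidneys, a fall, and -1.08 ± 0.26 in VE-PTPiKO kidneys, where it did not pass the test (adjusted p = 0.0718). Without VE-PTPiKO IR replicate 3 the VE-PTPiKO value was -1.29 (adjusted p = 0.0105), and without VE-PTPiKO sham replicate 1 it was -1.37 (adjusted p = 0.0162). With all VE-PTPiKO libraries kept, DESeq2 on the recovered reads gave Utp20 an adjusted p of 0.00222. The authors' deposited adjusted p was 0.000229. Of 17 alternatives, 7 called it in VE-PTPiKO kidneys. Utp20 lies at chr10:88746607-88826814 on the minus strand of mm10, with no exon shared with another annotated gene. In each genotype Utp20 was the 1 gene of the processome set below 0 on the log2 fold change scale.

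**Figure D2:**
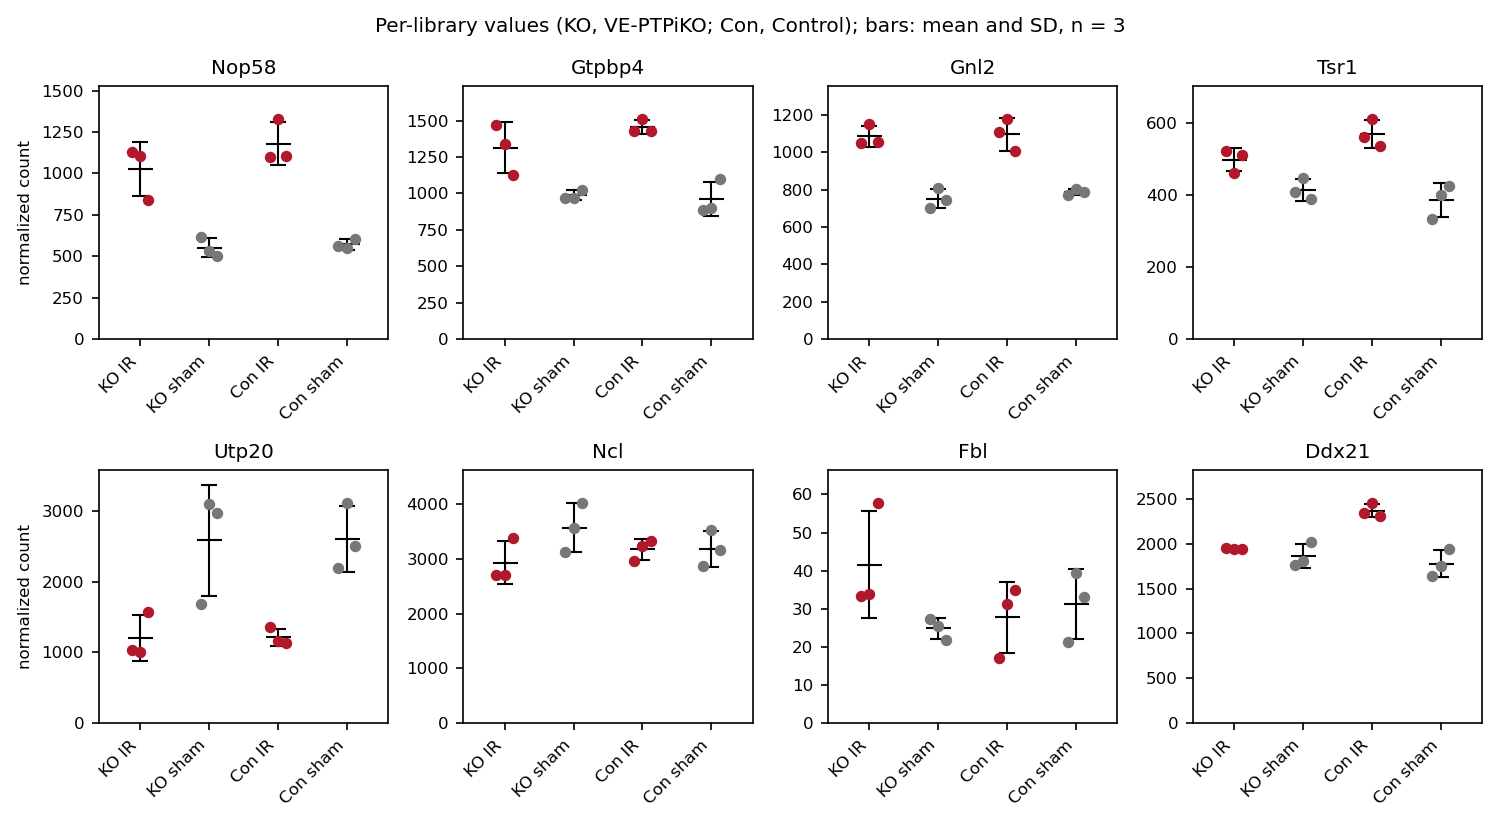
Normalized count per library of 8 genes in the 4 groups (red IR, grey sham), scaled over all 12 libraries together, so values differ slightly from those within a genotype's table; bars are the mean and SD of 3 libraries. Nop58 and Gnl2 sit higher in every IR library of each genotype, Utp20 sits lower, and the 3 Control IR values of Ddx21 lie above all others of that gene.

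Promoters of 4 called genes are shown, 3 that rose in Control (Nop58, Nolc1 and Gtpbp4) and the 1 that fell (Utp20), so that their sequence can be set beside their values. Each line gives the 120 bases before the annotated start, 5′ to 3′ on the gene's own strand, from RefSeq on GRCm38.p6, at chr1:59684886-59685005 (plus strand) for Nop58, chr19:46075727-46075846 (plus strand) for Nolc1, chr13:8996013-8996132 (minus strand) for Gtpbp4 and chr10:88826815-88826934 (minus strand) for Utp20.
Nop58: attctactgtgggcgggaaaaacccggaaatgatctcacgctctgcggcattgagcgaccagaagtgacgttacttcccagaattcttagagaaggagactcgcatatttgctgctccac
Nolc1: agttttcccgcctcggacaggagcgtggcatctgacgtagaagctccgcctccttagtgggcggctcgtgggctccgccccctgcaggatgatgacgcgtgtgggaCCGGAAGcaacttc
Gtpbp4: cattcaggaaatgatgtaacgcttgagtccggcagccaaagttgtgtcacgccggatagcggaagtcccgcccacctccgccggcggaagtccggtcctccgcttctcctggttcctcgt
Utp20: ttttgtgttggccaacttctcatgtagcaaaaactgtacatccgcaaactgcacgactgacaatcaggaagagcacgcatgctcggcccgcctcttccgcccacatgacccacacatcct
Capitals mark CCGGAAG, the letters of an ETS-family motif, searched on both strands of the 250 bases before the start. It was found for 10 of the 39 genes with a RefSeq promoter, or 25.6%, beside 1637 of 12332 tested genes with one, or 13.3%. A gene with several annotated starts was counted once, if any of its windows held the motif. The 10 were Ddx10, Gar1, Heatr1, Ltv1, Nhp2, Nip7, Nolc1, Nop2, Polr1c and Wdr74. Of them 9 had a log2 fold change above 0 in Control kidneys and 1, Nolc1, was called. In the whole list 84.4% lay above 0 and 17.8% were called higher, beside 48.4% and 7.48% of all genes tested. A link between the motif and the response was not tested. The E-box CACGTG, the motif that MYC binds, was found for 2 of the 39, or 5.13%, beside 9.2% of tested genes with a promoter. The cAMP response element TGACGTCA and the palindromic NRF1 motif were found for 0 of the 39 genes, beside 2.83% and 1.6% of tested genes with a promoter. No motif searched contains another, and a match is a description of sequence, not of binding.

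Among the RNA polymerase I genes, none of 6 passed the test in either genotype, and their median log2 fold changes were 0.05 in VE-PTPiKO kidneys and 0.03 in Control kidneys. Polr1a, the largest subunit, had 591, 590.2 and 788 normalized counts in VE-PTPiKO IR kidneys, against 717, 1034 and 903 in VE-PTPiKO sham kidneys. Polr1a in Control IR kidneys was at 624, 616 and 773 normalized counts, against 677, 956 and 801 in Control sham kidneys. The groups overlapped in each genotype, with log2 fold changes of -0.43 ± 0.18 (adjusted p = 0.312, limma) in VE-PTPiKO and -0.27 ± 0.15 (adjusted p = 0.315) in Control. Polr1b, the other large catalytic subunit, had 462, 376 and 484 normalized counts in VE-PTPiKO IR kidneys, against 369, 434 and 428 in VE-PTPiKO sham kidneys. For Polr1b the Control IR libraries gave 446, 502 and 486 normalized counts, against 380.2, 425 and 449 in Control sham libraries, and the groups overlapped in each genotype. Rrn3, the factor that brings the polymerase to its promoter, had 982, 877 and 888 normalized counts in VE-PTPiKO IR kidneys, against 835, 832 and 868 in VE-PTPiKO sham kidneys. Rrn3 was at 982, 1039.5 and 1001 normalized counts in Control IR kidneys, against 883, 832 and 1063 in Control sham kidneys. Its groups were separated upward in VE-PTPiKO and overlapped in Control, at log2 fold changes of 0.11 ± 0.12 and 0.13 ± 0.12.

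Ubtf, the protein that coats active ribosomal DNA, had its IR values wholly below its sham values in each genotype, without a call. It had 1421, 1419 and 1389 normalized counts in VE-PTPiKO IR kidneys, against 1757, 1900.0 and 1859.8 in VE-PTPiKO sham kidneys. Control libraries gave Ubtf 1425, 1531 and 1595 normalized counts after IR, against 1770.2, 1903 and 1706 after sham surgery. The log2 fold changes were -0.38 ± 0.12 (adjusted p = 0.146, limma) in VE-PTPiKO and -0.24 ± 0.10 (adjusted p = 0.171) in Control. DESeq2 gave Ubtf an adjusted p of 0.0447 in VE-PTPiKO kidneys. Polr1c, a subunit shared with RNA polymerase III, was at log2 fold changes of 0.01 ± 0.21 and -0.07 ± 0.14, and Polr1e, another subunit, was at 0.27 ± 0.23 and 0.29 ± 0.14, each in VE-PTPiKO and then in Control. Without VE-PTPiKO IR replicate 3 the VE-PTPiKO IR values of Polr1c and Polr1e lay wholly above sham and those of Polr1a wholly below, at log2 fold changes of 0.25, 0.50 and -0.57, none past the threshold (adjusted p = 0.244, 0.0841 and 0.0516, limma).

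Of the 8 snoRNP genes, 1 rose in VE-PTPiKO kidneys and 2 rose in Control kidneys, and none fell. Over all genes tested, 1.92% were called higher in VE-PTPiKO and 7.48% in Control. Nolc1, a phosphoprotein that chaperones snoRNPs, had 948, 892 and 877 normalized counts in VE-PTPiKO IR kidneys, against 804, 851 and 869.7 in VE-PTPiKO sham kidneys. Nolc1 stood at 1111, 1186 and 1106 normalized counts in Control IR kidneys, against 750.3, 901 and 936 in Control sham kidneys. IR libraries were above sham libraries in each genotype, closely so in VE-PTPiKO. Nolc1 rose 1.32-fold in Control (adjusted p = 0.0496, limma), at the edge of the threshold, and was at a log2 fold change of 0.11 ± 0.12 in VE-PTPiKO (adjusted p = 0.76). That call was lost without any 1 Control library other than sham replicate 2, at adjusted p of 0.0592 to 0.223 by limma. Nop56, the partner of Nop58 in box C/D particles, had 541, 413 and 451 normalized counts in VE-PTPiKO IR kidneys, against 339, 373 and 362 in VE-PTPiKO sham kidneys. Nop56 in Control IR kidneys was at 472, 503 and 481 normalized counts, against 355, 395 and 511 in Control sham kidneys. The groups of this gene were separated upward in VE-PTPiKO and overlapped in Control, without a call in either (log2 fold changes 0.38 ± 0.16 and 0.22 ± 0.15).

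Fbl, fibrillarin, the methyltransferase of the same particles, was the lowest member per length. It had 33.2, 33.6 and 57.3 normalized counts in VE-PTPiKO IR kidneys, against 27.2, 25.2 and 21.6 in VE-PTPiKO sham kidneys. Its values in Control were 17.3, 31.4 and 35.2 normalized counts after IR, against 21.4, 39.5 and 33.3 after sham surgery. In VE-PTPiKO the IR libraries all lay above the sham libraries, in Control the groups overlapped, and VE-PTPiKO IR replicate 3 was the highest of all 12. Neither comparison passed the test (log2 fold changes 0.68 ± 0.31 and -0.18 ± 0.35). Transcripts of 2 other genes, Gm5812 and Tulp4, share at least 95% identity with it over at least 50% of its length, so the count of Fbl is uncertain. The same holds for Npm1, Pes1 and Mrto4, which also have near-identical transcripts elsewhere, 4 members in all.

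Dkc1 and Gar1 belong to the H/ACA snoRNPs, in which Dkc1, dyskerin, makes pseudouridine. Dkc1 had 275, 249 and 200.2 normalized counts in VE-PTPiKO IR kidneys, against 280.4, 240.5 and 194 in VE-PTPiKO sham kidneys. For Dkc1 the Control IR libraries gave 256, 276 and 250.2 normalized counts, against 199.7, 220.5 and 315 in Control sham libraries, and its groups overlapped in each genotype. Gar1, a structural protein of the particle, had 80.9, 76.9 and 79.0 normalized counts in VE-PTPiKO IR kidneys, against 83.3, 91.4 and 77.2 in VE-PTPiKO sham kidneys. Gar1 was at 111, 102 and 98.0 normalized counts in Control IR kidneys, against 90.3, 88.7 and 85.9 in Control sham kidneys. Its groups were separated upward in Control without passing the test (adjusted p = 0.502, limma), and overlapped in VE-PTPiKO. Nhp2, another H/ACA protein, and Rrp9, a protein of the U3 particle, did not pass the test either. Nhp2 had 1096, 1079 and 509.6 normalized counts in VE-PTPiKO IR kidneys, against 1044, 702 and 806 in VE-PTPiKO sham kidneys, with replicate 3 of the IR group the lowest. Without that library Nhp2 was at a log2 fold change of 0.37 and Rrp9 at 0.63, each separated upward and neither past the threshold (adjusted p = 0.167 and 0.0618, limma).

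The 6 nucleolar scaffold and chaperone genes held 1 call, Ddx21 in Control, where 7.48% of all genes tested were called higher. Ddx21, an RNA helicase of the nucleolus, had 1953, 1935 and 1930.1 normalized counts in VE-PTPiKO IR kidneys, against 1759, 1798 and 2006 in VE-PTPiKO sham kidneys. Control libraries gave Ddx21 2364, 2475 and 2328 normalized counts after IR, against 1646, 1759 and 1954 after sham surgery. The Control groups were far apart and the VE-PTPiKO groups overlapped. It rose 1.34-fold in Control (log2 fold change 0.42 ± 0.10, adjusted p = 0.0233, limma) and was at 0.07 ± 0.12 in VE-PTPiKO (adjusted p = 0.859). Leaving out any 1 of the 3 Control IR libraries or Control sham replicate 1 ended the Control call, at adjusted p of 0.0655 to 0.138. Ncl and Npm1 encode nucleolin and nucleophosmin, abundant RNA-binding proteins of the nucleolus. Ncl had 2702, 2689 and 3366 normalized counts in VE-PTPiKO IR kidneys, against 3112, 3532 and 4002 in VE-PTPiKO sham kidneys. Ncl stood at 2988, 3262 and 3359 normalized counts in Control IR kidneys, against 2887, 3548 and 3183 in Control sham kidneys. The groups overlapped in each genotype, and the log2 fold change was -0.28 ± 0.15 in VE-PTPiKO and 0.00 ± 0.11 in Control. Leaving out VE-PTPiKO IR replicate 3 gave a VE-PTPiKO value of -0.39 (adjusted p = 0.0822, limma), with IR below sham.

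Npm1 had 1012, 1318 and 961 normalized counts in VE-PTPiKO IR kidneys, against 972, 1112 and 894 in VE-PTPiKO sham kidneys. It was at 1139, 1124 and 972 normalized counts in Control IR kidneys, against 1054, 908 and 998 in Control sham kidneys. The groups overlapped in each genotype here too. Gnl3, nucleostemin, a GTP-binding protein abundant in stem and proliferating cells, had 1334, 1089 and 892 normalized counts in VE-PTPiKO IR kidneys, against 713, 761 and 663 in VE-PTPiKO sham kidneys. Gnl3 in Control IR kidneys was at 1188, 1162 and 1024 normalized counts, against 657, 711 and 1039 in Control sham kidneys. The groups of this gene were separated upward in VE-PTPiKO and overlapped in Control, where sham replicate 3 was the highest sham library. It came near the threshold in each, with log2 fold changes of 0.62 ± 0.17 (adjusted p = 0.107, limma) in VE-PTPiKO and 0.51 ± 0.16 (adjusted p = 0.0707) in Control. Without VE-PTPiKO IR replicate 3 it passed in VE-PTPiKO at 0.76 (adjusted p = 0.00969), and without Control sham replicate 3 in Control at 0.71 (adjusted p = 0.00911). Mybbp1a, a nucleolar protein that binds MYB and represses transcription, had 1539.9, 1473 and 1655 normalized counts in VE-PTPiKO IR kidneys, against 1508, 1570.0 and 1641 in VE-PTPiKO sham kidneys. Mybbp1a had 1656, 1902 and 1791 normalized counts in Control IR kidneys, against 1418, 1538 and 1507 in Control sham kidneys. The Control groups were separated upward and the VE-PTPiKO groups overlapped, with no call in either. Noc2l, an inhibitor of histone acetylation, was at log2 fold changes of -0.01 ± 0.14 in VE-PTPiKO and 0.26 ± 0.11 in Control.

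The 7 genes of the small subunit processome, which folds and trims the precursor of the small subunit, held 3 calls in Control, 2 rises beside the fall of Utp20, and none in VE-PTPiKO. Shares of all genes called in Control were 7.48% higher and 4.02% lower. Rrp12, a repeat protein of early subunit assembly and export, had 496, 472 and 608 normalized counts in VE-PTPiKO IR kidneys, against 351, 446 and 478 in VE-PTPiKO sham kidneys. Its values in Control were 626, 645 and 558 normalized counts after IR, against 412, 480.4 and 425 after sham surgery. It rose 1.39-fold in Control, where the groups did not overlap (adjusted p = 0.0311, limma), and was at a log2 fold change of 0.31 ± 0.17 in VE-PTPiKO, where they did. The rise of Rrp12 was lost without any 1 Control library other than sham replicate 2, at adjusted p of 0.0516 to 0.171. Wdr43, a subunit of the complex that loads onto the precursor as it is transcribed, had 1406, 1358 and 1141 normalized counts in VE-PTPiKO IR kidneys, against 1010.3, 1030.2 and 969.5 in VE-PTPiKO sham kidneys. For Wdr43 the Control IR libraries gave 1367, 1392 and 1313 normalized counts, against 977, 1014 and 1152 in Control sham libraries. IR libraries were above sham libraries in each genotype, and the log2 fold changes were 0.37 ± 0.13 (adjusted p = 0.223, limma) in VE-PTPiKO and 0.38 ± 0.11 (adjusted p = 0.0444) in Control. Its Control call was lost without any 1 Control library other than sham replicate 3, at adjusted p of 0.0562 to 0.199, and without VE-PTPiKO IR replicate 3 it passed in VE-PTPiKO at 0.46 (adjusted p = 0.0301). Heatr1, the large relative of yeast Utp10, had 1043, 948 and 1069 normalized counts in VE-PTPiKO IR kidneys, against 790.1, 933 and 858 in VE-PTPiKO sham kidneys. Heatr1 was at 1066, 1129 and 1159 normalized counts in Control IR kidneys, against 740.1, 899 and 916 in Control sham kidneys. Its groups were separated upward in each genotype, and it just missed the threshold in Control (adjusted p = 0.0517, limma, and 0.0384 without Control sham replicate 2). Wdr3, Nop14 and Ddx10, further processome proteins, had log2 fold changes between 0.04 and 0.26 in VE-PTPiKO and between 0.19 and 0.33 in Control, with no call.

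Of the 4 late factors of the small subunit, Tsr1 rose in Control, where 7.48% of all genes were called higher, and no other passed the test. Tsr1, a GTPase-like protein that keeps immature subunits from starting translation, had 520.5, 458 and 505 normalized counts in VE-PTPiKO IR kidneys, against 405, 443 and 385 in VE-PTPiKO sham kidneys. Control libraries gave Tsr1 565, 615 and 538 normalized counts after IR, against 334, 401 and 427 after sham surgery. IR libraries were above sham libraries in each genotype, with log2 fold changes of 0.27 ± 0.14 (adjusted p = 0.421, limma) in VE-PTPiKO and 0.57 ± 0.13 (adjusted p = 0.0191) in Control. Without Control IR replicate 1, Control IR replicate 2 or Control sham replicate 1 the adjusted p was 0.0552 to 0.122. Of its exon length 32.3% overlaps Srr on the opposite strand, and no source used here says whether the counting used strand, so its count is uncertain. Bysl, bystin, had 567, 447 and 474 normalized counts in VE-PTPiKO IR kidneys, against 474, 423 and 394 in VE-PTPiKO sham kidneys. Bysl stood at 559, 586 and 573 normalized counts in Control IR kidneys, against 443, 422 and 501 in Control sham kidneys. The groups of this gene were separated upward in Control and overlapped in VE-PTPiKO.

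Ltv1, a late assembly factor, had 673, 584 and 401 normalized counts in VE-PTPiKO IR kidneys, against 550.1, 476 and 444 in VE-PTPiKO sham kidneys. It was at 584, 588 and 646 normalized counts in Control IR kidneys, against 518, 502 and 564 in Control sham kidneys. Again the Control groups were separated upward and the VE-PTPiKO groups overlapped, and VE-PTPiKO IR replicate 3 was the lowest library of all 12 on that gene. Without it Ltv1 was separated upward in VE-PTPiKO too, at 0.36 (adjusted p = 0.136, limma). Nob1, the endonuclease that makes the last cut of the small subunit RNA, had 415, 343 and 355 normalized counts in VE-PTPiKO IR kidneys, against 364, 356 and 389 in VE-PTPiKO sham kidneys. Nob1 had 478, 504 and 422 normalized counts in Control IR kidneys, against 382, 339.9 and 477 in Control sham kidneys. The groups overlapped in each genotype.

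The large subunit set of 14 held 2 rises in Control, both GTPases of its assembly, and no call in VE-PTPiKO. Of all genes, 7.48% were called higher in Control, or 9.83% of those with a mean of at least 100. No role was tested as a set. Gtpbp4 had 1471, 1337 and 1116 normalized counts in VE-PTPiKO IR kidneys, against 965, 958 and 1021 in VE-PTPiKO sham kidneys. Its values in Control were 1441, 1524 and 1440.5 normalized counts after IR, against 891, 908 and 1106 after sham surgery. Every IR library was above every sham library of its genotype, and the log2 fold changes were 0.41 ± 0.14 (adjusted p = 0.209, limma) in VE-PTPiKO and 0.61 ± 0.11 (adjusted p = 0.00601) in Control. Gnl2 had 1046, 1145 and 1047 normalized counts in VE-PTPiKO IR kidneys, against 701, 799 and 741 in VE-PTPiKO sham kidneys. For Gnl2 the Control IR libraries gave 1118, 1187 and 1010.5 normalized counts, against 776, 805 and 793 in Control sham libraries. The separation was complete in each genotype, and the log2 fold changes were 0.53 ± 0.13 in VE-PTPiKO (adjusted p = 0.0697, limma) and 0.48 ± 0.11 in Control (adjusted p = 0.0153). Gnl2 lost its Control call, with an adjusted p of 0.0576 and 0.115 by limma, when replicate 1 and when replicate 2 of Control IR was left out. Without VE-PTPiKO IR replicate 3 both GTPases passed in VE-PTPiKO, Gnl2 at 0.55 (adjusted p = 0.0232) and Gtpbp4 at 0.52 (adjusted p = 0.0235).

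Pes1, Bop1 and Wdr12 form the PeBoW complex, which is needed to process the RNAs of the large subunit, and none of them passed the test. Pes1 had 933, 936 and 735 normalized counts in VE-PTPiKO IR kidneys, against 936, 756 and 833 in VE-PTPiKO sham kidneys. Pes1 was at 882, 871 and 852 normalized counts in Control IR kidneys, against 970.3, 805 and 972 in Control sham kidneys. Its log2 fold changes were 0.04 ± 0.15 and -0.07 ± 0.11, with overlapping groups. Bop1 had 753, 804 and 629 normalized counts in VE-PTPiKO IR kidneys, against 736, 693 and 707 in VE-PTPiKO sham kidneys. Control libraries gave Bop1 779.8, 785 and 731 normalized counts after IR, against 835, 657 and 863 after sham surgery. Its log2 fold changes were 0.03 ± 0.14 and -0.03 ± 0.13, with overlapping groups. Without VE-PTPiKO IR replicate 3, Bop1 was separated upward in VE-PTPiKO at 0.13, not past the threshold (adjusted p = 0.513, limma). Wdr12 had 302, 257 and 259 normalized counts in VE-PTPiKO IR kidneys, against 304, 282 and 268 in VE-PTPiKO sham kidneys. Wdr12 stood at 251, 272 and 337 normalized counts in Control IR kidneys, against 249, 263 and 341 in Control sham kidneys. Its log2 fold changes were -0.06 ± 0.16 and 0.01 ± 0.17. With all libraries kept, all 3 members of the complex thus lay within 0.07 of 0 in each genotype, with SE of 0.11 to 0.17.

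Rrp1 and Rrp1b are a pair of related nucleolar proteins, relatives of a yeast factor for the large subunit. Rrp1 had 2353, 2432 and 2132 normalized counts in VE-PTPiKO IR kidneys, against 2383, 2232 and 2349 in VE-PTPiKO sham kidneys. Its values in Control were 2609, 2678 and 2398 normalized counts after IR, against 2379, 2149 and 2408 after sham surgery, and the groups overlapped in each genotype. Rrp1b, much lower per length, had 279, 302 and 278 normalized counts in VE-PTPiKO IR kidneys, against 224, 211 and 158 in VE-PTPiKO sham kidneys. Rrp1b was at 276, 331 and 284 normalized counts in Control IR kidneys, against 226, 246 and 190.0 in Control sham kidneys. Its groups were separated upward in each genotype without a call, at log2 fold changes of 0.55 ± 0.18 (adjusted p = 0.183, limma) and 0.43 ± 0.15 (adjusted p = 0.107). The other large subunit genes were Nop2, Nop16, Rrs1, Wdr74, Nip7, Noc3l and Mrto4. Their log2 fold changes lay between -0.30 (Rrs1) and 0.39 (Wdr74) in VE-PTPiKO and between 0.04 (Rrs1) and 0.33 (Nop2) in Control, with overlapping groups throughout. In VE-PTPiKO the overlap of Wdr74 and Nip7 came from IR replicate 3, and without it they passed the test at 0.56 (adjusted p = 0.0385, limma) and 0.64 (adjusted p = 0.032). Nop2 and Mrto4 were also separated upward without that library. They were at 0.25 and 0.22, not past the threshold (adjusted p = 0.246 and 0.365, limma).

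**Figure D3:**
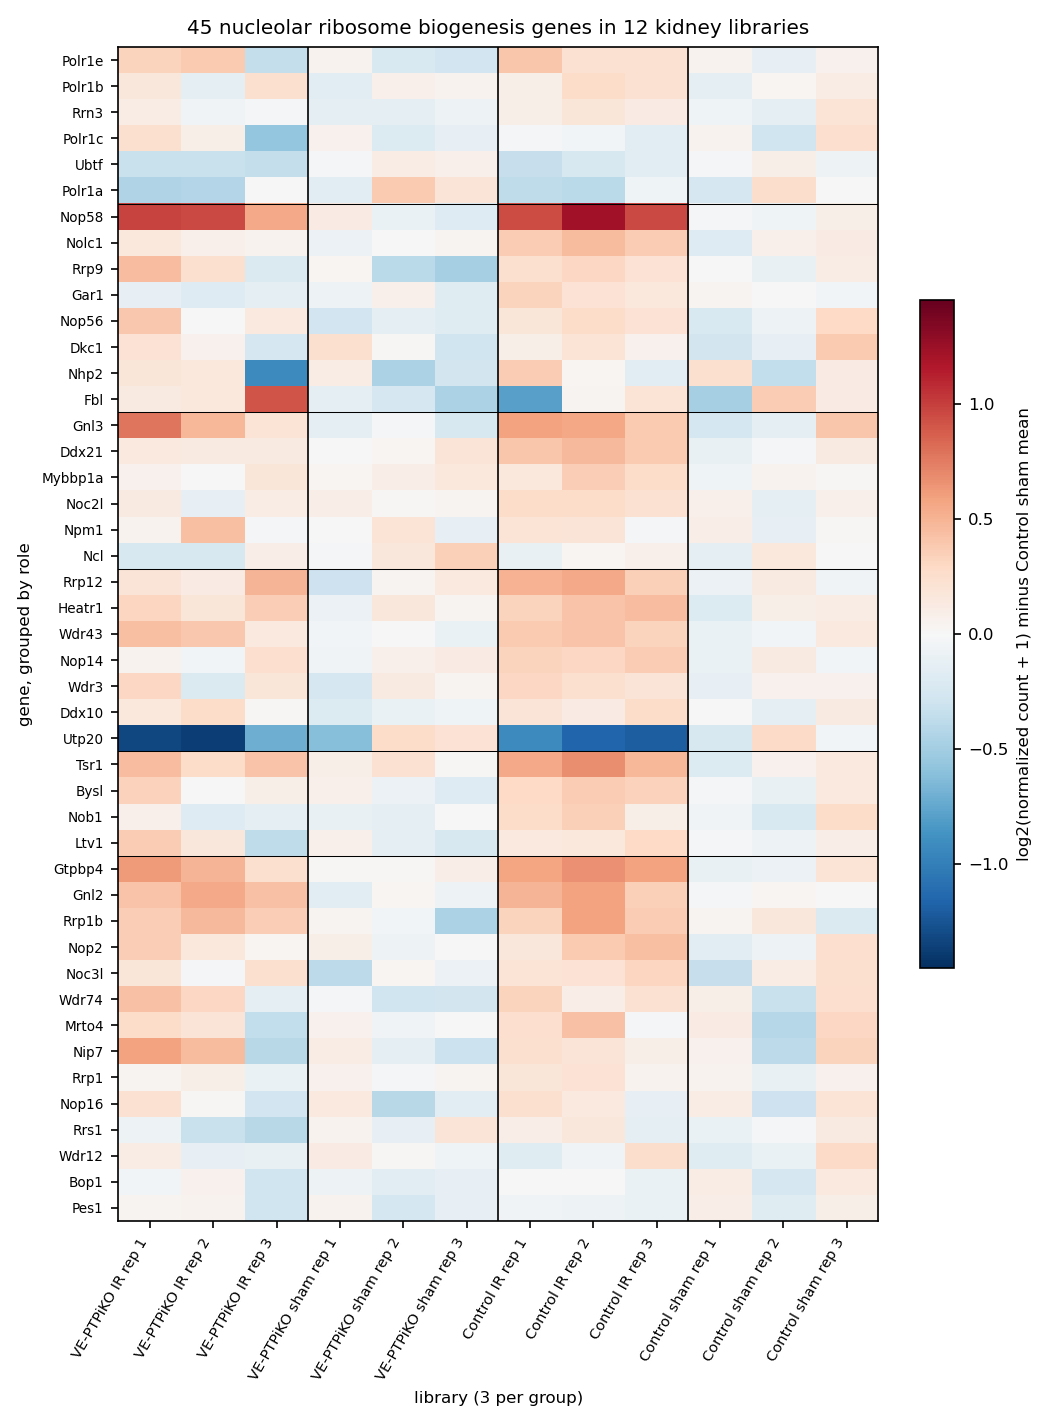
Heat map of log2(normalized count + 1) minus the Control sham mean, 45 genes by role down the page and 12 libraries across, with red higher and blue lower. The Nop58 row is red in all 6 IR libraries and the Utp20 row is blue in the same 6. Utp20 is also blue, less strongly, in VE-PTPiKO sham replicate 1. VE-PTPiKO IR replicate 3 is blue for Nhp2 and red for Fbl.

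Per exon length, members spanned a wide range of levels. Levels are RPKM (reads per kilobase of exon, scaled to the reads of the library) averaged over the 4 groups. Exon length joined the exons of all annotated transcripts of a gene, 10758 bases for Nop58 and 11955 for Wdr12. A gene with long exons in any annotated transcript thus comes out low, so the order depends on the annotation. Nhp2 was the highest at 46.2, then Rrp1 at 40, Npm1 at 21.9 and Ddx21 at 21.6. Rrp1b at 1.83, Wdr12 at 1.33 and Fbl at 0.422 were the lowest. The counts of Npm1 and Fbl are uncertain, since near-identical transcripts lie elsewhere. Nop58 stood at 6.19 in Control IR and 2.93 in Control sham on this scale. Utp20 stood at 6.7 in Control IR and 14.1 in Control sham. Ddx21 was the highest per length of the 8 that rose in Control. Summed over the 45 genes, reads made up 1964 to 2074 CPM in VE-PTPiKO IR libraries and 1841 to 1961 CPM in VE-PTPiKO sham libraries. In Control IR libraries the sum was 2052 to 2181 CPM, and in Control sham libraries 1780 to 1961 CPM, so the groups did not overlap in either genotype.

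**Figure D4:**
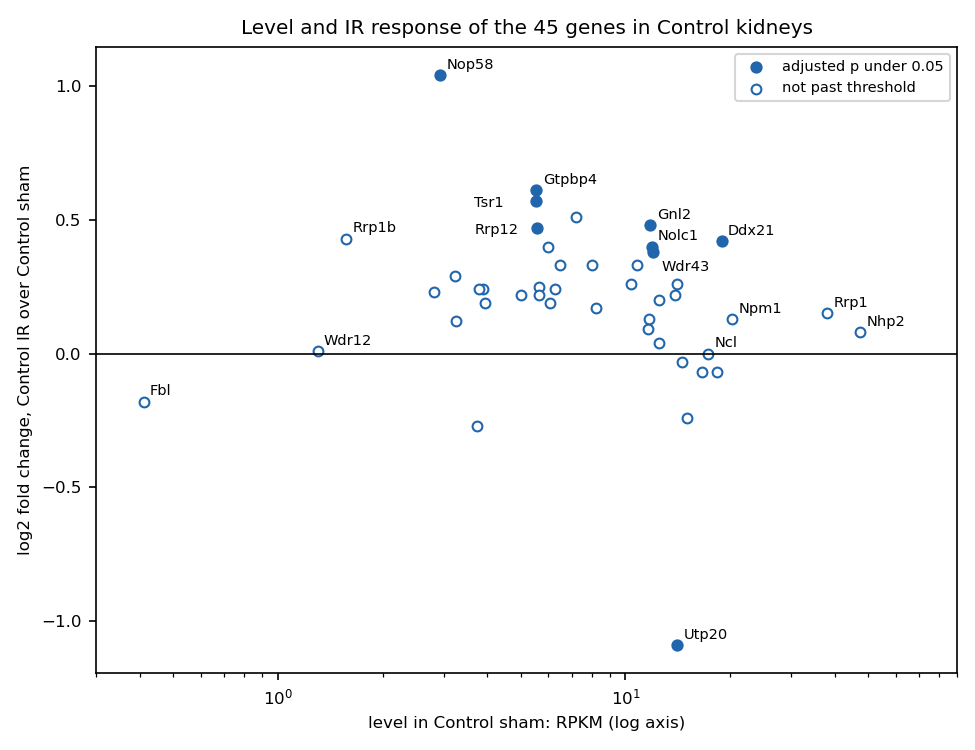
Log2 fold change, Control IR over Control sham, against level in Control sham in RPKM on a log axis, for the 45 genes; filled points have an adjusted p under 0.05. Nop58 is at 1.04 with a level of 2.93, Utp20 is at -1.09 with a level of 14.1, and Rrp1 and Nhp2, the highest, lie near 0.

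No member passed the test between genotypes after IR, where no gene of 16339 tested passed the threshold (0% called by limma, and 0 members by edgeR or DESeq2). At an unadjusted p under 0.05, 5 members were called, all lower in VE-PTPiKO IR (Gar1, Nolc1, Ddx21, Nob1 and Rrs1), and 4.34% of all genes were. Fold changes of VE-PTPiKO over Control after IR lay above 0 on the log2 scale for 4 of the 45, or 8.89%, beside 46.4% of all genes. The other 41 lay below 0, and the median of the 45 was -0.11. The 3 VE-PTPiKO IR libraries lay wholly below the 3 Control IR libraries for 7 members, where 5.19% of all genes did so, and wholly above for none, where 3.97% did so. Without VE-PTPiKO IR replicate 3, 18 of the 45, 40.0%, lay above 0 beside 48.8% of all genes, and the median was -0.07. After sham surgery no member passed the threshold or reached an unadjusted p under 0.05, edgeR and DESeq2 calling 0 as well, 16 of the 45 lay above 0 beside 52.0% of all genes, and no member's groups were separated, where 2.50% of all genes were separated upward and 2.36% downward. The test of the difference between the IR responses of the genotypes called 0 members (adjusted p = 0.999, limma), also 0 by edgeR and DESeq2, and 16 of the 45 lay above 0 beside 47.8% of all genes. At an unadjusted p under 0.05 there was 1 member, beside 2.64% of all genes: Ddx21, whose response differed by -0.35 ± 0.14 on the log2 scale (SE), VE-PTPiKO minus Control. The response of Nop58 differed by -0.16 ± 0.20 and Utp20 by 0.01 ± 0.33 (SE), each less than its SE. These contrasts share libraries with the comparisons above.

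Genes of the same pathway outside the 45 were counted from 6 lists. In VE-PTPiKO kidneys none of 127 tested was called after IR, and 96 of them, 75.6%, lay above 0 with a median log2 fold change of 0.14. In Control kidneys 12 of 127, 9.45%, rose and none fell, beside 7.48% of all genes tested and 9.83% of those with a mean of at least 100 called higher, with 100 of them, 78.7%, above 0 and a median of 0.15. By list, the Control calls were 8 of 44 for large subunit assembly, 2 of 12 for snoRNP assembly, 1 of 35 for the small subunit processome, 1 of 7 for late small subunit maturation, 0 of 16 for RNA polymerase I and 0 of 13 for the RNA exosome. Riok1, a kinase of late small subunit assembly, rose 1.83-fold (adjusted p = 0.000997, limma) and Znhit6, an assembly factor of box C/D snoRNPs, rose 1.91-fold (adjusted p = 0.00367). Naf1, an assembly factor of H/ACA snoRNPs, rose 1.76-fold (adjusted p = 0.00314), and Zfp593, a zinc finger protein whose yeast relative helps make the large subunit, rose 2.05-fold (adjusted p = 0.0425).

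Of the 45, 7 host snoRNA genes in their introns or exons, or 15.556%, beside 1.75% of genes tested, and they hold 21 snoRNA genes between them. Nop56 hosts 5, Nop58 4, Ncl, Gnl3 and Wdr43 3 each, Tsr1 2 and Dkc1 1. Host genes had a median log2 fold change of 0.37 in VE-PTPiKO kidneys, against 0.11 for the other 38 members. In Control kidneys the medians were 0.38 for hosts, 3 of 7 of which rose, and 0.22 for the other 38, of which 5 rose and 1 fell, beside 7.48% of all genes called higher and 4.02% called lower. Single hosts ran from Ncl at 0.00 to Nop58 at 1.04 in Control, and the difference between the lists was not tested.

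Markers of other cell types were read beside these counts. Leukocyte markers summed to 101 to 129 CPM in VE-PTPiKO IR and 89.4 to 99.8 CPM in VE-PTPiKO sham, with 1 of 10 called, Cd68, 5.22-fold higher. In Control they summed to 112 to 124 CPM after IR and 83.7 to 103 CPM after sham surgery, with 1 of 9 called, Cd68 again, 5.61-fold higher. Cd3e and Ly6g, markers of T cells and neutrophils, were each at 0 to 0.234 CPM in all 12 libraries. S100a8 and S100a9, of the same list, lay between 1.13 and 11.6 CPM. Their log2 fold changes were 0.84 and 0.87 in VE-PTPiKO and 1.19 and 1.07 in Control, without a call. Of the leukocyte markers, 8 of 10 lay above 0 in VE-PTPiKO and 9 of 9 in Control. Cycling cell markers had none of 6 called and summed to 20.8 to 39 CPM in VE-PTPiKO IR, 11.5 to 57.7 CPM in VE-PTPiKO sham, 18.2 to 46.6 CPM in Control IR and 18.6 to 24.8 CPM in Control sham. Red cell markers summed to 35.3 to 109 CPM in VE-PTPiKO IR and 19 to 31.5 CPM in VE-PTPiKO sham, with 0 of 2 called. Both, Alas2 and Hba-a1, rose in Control, where the sum was 66.2 to 134 CPM after IR and 17.8 to 35.2 CPM after sham surgery. Endothelial markers summed to 407 to 449 CPM in VE-PTPiKO IR and 376 to 420 CPM in VE-PTPiKO sham, with 0 of 4 called. In Control 1 of the 4 rose, Cdh5, and the sum was 357 to 436 CPM after IR and 329 to 367 CPM after sham surgery. No podocyte, tubule, or fibroblast and mural marker was called in either genotype. The part of these cells in the results was not tested.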

How the data were processed

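Bulk RNA-seq of whole kidney was read from 2 deposited tables, 1 per genotype, each with 3 IR and 3 sham libraries. RNA was extracted with Trizol and sequenced from TruSeq RNA libraries, per the labels' protocols. FastQC, STAR, HTSeq and DESeq2 on mm10 were the authors' tools, per the submitters' processing notes, with no versions given. Each deposited library column is a normalized signal, in which the authors divided gene counts by 1 size factor per library, separately for each table, as the values show. Multiplied back, 100.0% of values came within 0.02 of a whole read; size factors ran from 0.8863 to 1.2125. The authors' deposited log2 fold changes and adjusted p-values were read as theirs, per the file headers. Of 23493 lines per table, 182 gene identifiers occurred more than once with identical values, and 23286 genes were kept. The 2 single-cell samples were not analysed here.

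IR and sham were compared within each table by limma 3.58.1 (R 4.3.3) with a trend on log2(value + 1), so folds of low genes are understated. Genes needed a mean of at least 1, p-values were adjusted by Benjamini-Hochberg over all genes tested, and the threshold was 0.05. Genotypes and the interaction were compared in 1 limma fit of the recovered reads of all 12 libraries, scaled with median-of-ratios factors from 14828 genes. edgeR 4.0.16 and DESeq2 1.42.0 on the recovered reads, other pseudocounts, filters and scalings, limma array weights and leaving out each library were the alternatives. The test was run on simulated counts with planted changes larger than those of most members, so the check does not cover smaller changes. The member list, the roles, the other gene lists and the tests were chosen with earlier results of these data known. Values in every library are given for chosen examples of each role and for called members; other members are given by fold or range. Exon overlap, hosted snoRNA genes and near-identical transcripts came from GENCODE vM21 on mm10, and promoters from RefSeq on GRCm38.p6, the assembly that mm10 names. Gene positions are those of the deposited tables, with starts turned to count from 1. Promoters were found for 39 of the 45 genes. No label says that numbers in the replicate names pair libraries, and the main tests did not pair them. Correlations of deviations from the group means between same-numbered libraries lay between -0.2 and 0.29. With so few libraries per group these cannot decide on pairing.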

Additional observations from a re-analysis of the deposited data

How the results depend on the processing

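In Control kidneys 9 members passed the test, and between 7 and 12 did so under another pseudocount, filter, scaling or tool, or with the replicate block, which gave 7. With a library left out the count was 3 to 10. It was 3 without Control IR replicate 1 or Control IR replicate 2, 4 without Control sham replicate 1 and 5 without Control IR replicate 3, and the cause was not tested. Nop58, Gtpbp4 and Utp20 were called in 17 of 17 alternatives, Gnl2 in 15, Tsr1 in 14, Ddx21 in 13, Rrp12 in 11, Wdr43 in 10 and Nolc1 in 8. In VE-PTPiKO kidneys 1 member passed, against 5 by DESeq2, 2 with the replicate block, 4 without the 3 libraries highest in Malat1, 14 with limma array weights and 4 in 1 model of all 12 libraries. DESeq2 called 7.15% of all genes there. Shares of all genes are given only for that setting and, above, for some left-out libraries. The other counts, in Control too, therefore cannot be read as results about the members. In VE-PTPiKO kidneys, leaving out a library gave 0 to 8 calls, 8 without VE-PTPiKO IR replicate 3, 2 without VE-PTPiKO sham replicate 1 and 0 without any of the other 4, and the cause was not tested. Nop58 was called in 13 of 17 alternatives in VE-PTPiKO and Utp20 in 7 of 17. The genotype contrasts and the interaction called 0 members in every alternative run. No value of a named member changed its direction past the threshold. Replicate numbers share only a number, so the block is no evidence on pairing. With 15427887 to 21296392 reads per library, Fbl had the lowest counts, so its values carry the most counting error of the 45.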

Other observations

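Opposite-strand or same-strand exon overlap could mix reads for some members, since no source used here says whether the counting used strand. Exons of 20 members touch a gene on the other strand, and for 3 the overlap is over 10% of exon length: Tsr1 with Srr at 32.3%, Noc2l with Samd11 at 20.9% and Wdr3 with Spag17 and Gdap2 at 16.2%. Across the 45 genes, Spearman's rho between exon length and the log2 fold change of IR over sham was 0.06 in VE-PTPiKO kidneys and 0.15 in Control kidneys, beside -0.18 and -0.03 over all genes tested; genes are not independent replicates and share libraries. The 8 members whose IR values lay wholly above their sham values in each genotype were Nop58, Nolc1, Wdr43, Heatr1, Tsr1, Rrp1b, Gnl2 and Gtpbp4. Those wholly below in each genotype were Utp20 and Ubtf. The share of all genes separated in both genotypes was not computed, so these counts have no background and are a description only.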
